A study of Mus musculus with 12 samples.

Results

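Dendritic cells (DCs) grown from the bone marrow of old mice fed *Lactobacillus plantarum* (LP) were set against DCs of young mice, to ask which differences between old and young remained after feeding. The comparison used 6 of the 12 arrays of the study, 3 titled Old-LP and 3 titled Young, chosen by their labels. Young DCs came from female mice labelled 2 months old with no agent, and Old-LP DCs from female mice labelled 24 months old with LP as the agent. The study's methods give C57BL/6 as the strain and oral gavage of LP every other day before the mice were killed. A figure legend of the study describes the array data as 3 independent sets, each a pool of 3 mice. Marrow cells of every group were grown with GM-CSF and IL-4, and the loosely adherent cells were given LPS at 1 μg/mL for 24 h before RNA was taken. The groups differed in age and in feeding at once, so Old DCs (24 months, no agent) are given beside them where a value needs a reference. The remaining arrays, from young mice given antibiotics (Young-Abx), entered the fit only to estimate the spread.

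DCs take up antigen, and on sensing LPS through TLR4 they mature, show peptides on MHC class II and release cytokines and chemokines. NF-κB transcription factors drive much of that response, and they also switch on their own inhibitors, such as IκBα, which end it. LP is a gut bacterium studied as a probiotic, and age is known to change both marrow output and inflammatory tone.

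The arrays were single-colour Agilent mouse arrays, on which the brightness of a spot follows the amount of a transcript, and every value below is normalised log2 signal unless stated. On arrays A and B of both groups 62.6% to 66.4% of spots stood well above background, against 44.0% on Young C and 41.8% on Old-LP C. Arrays A and B of every group shared 1 slide, while the C arrays of Young and Old-LP lay on different slides. Over 21427 probes well above background on all 6 arrays, A and B differed by a median of 0.10 in both groups, and A and C by 0.77 in Young and 0.67 in Old-LP. The study describes its sets as independent, but whether A and B came from separate pools cannot be told from these values. The p-values therefore measure only the spread between these arrays. The DC markers *Itgax*, which encodes CD11c, and *Cd83*, a maturation marker, had group means between 14.2 and 14.4. Of 10 DC markers, 8 were well above background on every Young array and 7 on every Old-LP array, and *Cd209a* was on none. All 7 measured T cell markers were also well above background on every array of both groups, with a summed intensity of 18208 to 33059 in Young and 16591 to 27373 in Old-LP, and the part of other cells was not tested.

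Few differences from Young remained in Old-LP DCs. With the replicate letter as a block, limma called 1 of 56605 probes (0.00177%). A call needed an adjusted p no higher than 0.05 together with a difference of 0.5 or more on the log2 scale in either direction. In the same fit, 1233 probes (2.18%) passed between Old and Young, which shares the Young arrays. With the p left unadjusted, 1459 probes (2.58%) passed the same limits between Old-LP and Young, 708 higher (1.25%) and 751 lower (1.33%) in Old-LP. Without the block 0 probes were called, the smallest adjusted p was 0.127, and 632 probes passed the unadjusted threshold. Within the slide that held A and B of every group, 11 probes were called, and all 11 were higher in Old-LP. Here and below, p-values on A and B alone may measure technical spread only, since A and B may not be separate pools.

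A probe that misses the threshold is not shown to be alike in both groups, so the intervals were read as well. Of the 21427 probes well above background on all 6 arrays, 18740 (87.5%) had a 95% interval inside -1 to 1, that is within a doubling or halving. The median half-width of the interval was 0.44 over these probes and 0.64 over all probes. Only 7179 of the bright probes (33.5%) had an interval inside -0.5 to 0.5, so differences near the fold change threshold could not be read for the rest. Differences above 1 in size were measured at 41 of the bright probes, and at 1 of them, that of *Hal*, the whole interval lay above 1.

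The called probe carries the transcript accession NM_177010, which had no gene symbol in the table used. Its signal was 1.75, 1.73 and 2.10 on Young A, B and C, and 5.43, 5.11 and 6.98 on Old-LP A, B and C. It was well above background on every Old-LP array and on no Young array, so only a bound can be given on the background-subtracted scale: it was at least 3.36-fold higher in Old-LP, with an adjusted p of 0.0441 (limma). Old DCs were higher still, at 8.29, 8.27 and 9.79. The call was lost when any 1 array other than Old C was left out of the fit, and with normexp background correction and in the authors' log2 table, where the difference was 1.06 and 1.13.

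Among named genes, the 10 with the highest difference over Young were *Ifi202b*, *Chil1*, *BC018473*, *Fosb*, *Fam71a*, *Atp6v0e2*, *Hal*, *Muc13*, *Abca4* and *Cxcl2*. They were taken from 174 probes (92 higher and 82 lower) that passed these unadjusted limits, without overlap between the Old-LP and the Young arrays. Each of these probes had the same sign for each letter and was well above background on every array of 1 or both groups. Of the 10 genes, 2 were well above background on every Young array, so the others met that condition through Old-LP only. Over all probes, 4.72% had arrays of the 2 groups that did not overlap. None of the 10 passed the adjusted threshold over all 12 arrays, and their order is set by the selection. In 5 of the 10 (*BC018473*, *Atp6v0e2*, *Hal*, *Muc13* and *Abca4*) every Old array was above the Old-LP array of the same letter, and these 5 passed the adjusted thresholds in Old against Young. Young C was not well above background for 8 of the 10, *Hal* and *Cxcl2* being the exceptions, so differences on C rest there on readings at background. With normexp the differences were smaller, at 2.78 for *Ifi202b*, 1.37 for *BC018473*, 1.29 for *Atp6v0e2*, 0.97 for *Fam71a*, 0.95 for *Abca4* and 0.70 for *Muc13*. The bounds given for single genes hold on the background-subtracted scale and not with normexp.

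*Hal* encodes histidine ammonia-lyase, the first enzyme of histidine breakdown. Its signal was 6.39, 6.26 and 7.01 in Young, 8.72, 8.63 and 9.83 in Old-LP, and 12.34, 12.33 and 12.35 in Old. Each Old-LP array thus lay between the Young and the Old arrays, with no overlap in either direction. The difference between Old-LP and Young was 2.51 (SE 0.31, 95% interval 1.78 to 3.23), a 5.69-fold difference, with an adjusted p of 0.671 over 12 arrays and 0.0223 on A and B alone (limma).

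*Atp6v0e2*, which encodes a subunit of the proton pump that acidifies vesicles, showed the same order. It read 4.16, 4.27 and 3.31 in Young, 6.57, 6.46 and 7.65 in Old-LP and 10.81, 10.97 and 9.62 in Old, and its difference from Young was 2.98 (SE 0.45). *BC018473*, a transcript with no role given here, read 2.45, 1.88 and 1.71 in Young, where no array was well above background, and 6.22, 6.15 and 7.33 in Old-LP. It was at least 5.55-fold higher in Old-LP than in Young, and Old DCs read 10.20, 10.38 and 8.93. *Abca4*, a lipid transporter best known from the retina, was at 3.54, 4.31 and 4.85 in Young and 5.52, 5.39 and 7.84 in Old-LP. Its difference of 2.02 (SE 0.35) held at this probe alone, since its other 2 probes gave 0.10 and -0.24 and were dim. *Muc13*, a membrane mucin, read 5.90, 5.74 and 2.49 in Young and 6.80, 6.90 and 6.56 in Old-LP, so that its fitted difference rested mostly on Young C, which was at background. Its other probe, well above background on all 6 arrays, differed by 0.80.

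In another 4 of the 10, Old array C stood more than 3 log2 units above Old A and B, and Old-LP arrays were above the Old A and B arrays. *Ifi202b* encodes an interferon-inducible DNA-binding protein whose expression is known to differ between inbred mouse strains. Its signal was 1.73, 1.63 and 2.82 in Young, 8.56, 8.64 and 8.45 in Old-LP, and 4.27, 4.10 and 10.24 in Old. No Young array was well above background, every Old-LP array was, and the difference was at least 22.0-fold. Its other probe gave a difference of the same direction.

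*Chil1* encodes a secreted chitinase-like glycoprotein. It read 4.98, 4.86 and 5.41 in Young and 9.96, 9.79 and 10.53 in Old-LP, a difference of 5.01 (SE 1.41), while Old read 6.08, 5.96 and 13.26. *Fosb*, an immediate early gene whose protein joins the AP-1 transcription factor, read 5.34, 4.90 and 4.50 in Young, 8.85, 8.49 and 9.72 in Old-LP and 5.50, 5.29 and 13.62 in Old. Its other probe, not well above background on any Young or Old-LP array, gave a difference of 0.53. *Fam71a* was not well above background on any Young array and was at least 3.76-fold higher in Old-LP. These 4 genes had wide errors in the fit over 12 arrays, which pools the spread of all groups. Without Old C, limma called 9 probes, among them 2 of *Ifi202b* and those of *Chil1*, *Fosb* and *Fam71a*, at adjusted p of 0.000284 to 0.0486. These 4 genes had been set apart by Old C. Leaving it out kept their differences from Young as they were and made only the errors smaller, so the calls add no separate support. On A and B alone, which may not be separate pools, *Ifi202b* and *Chil1* each had an adjusted p of 0.0012 (limma).

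**Figure D1:**
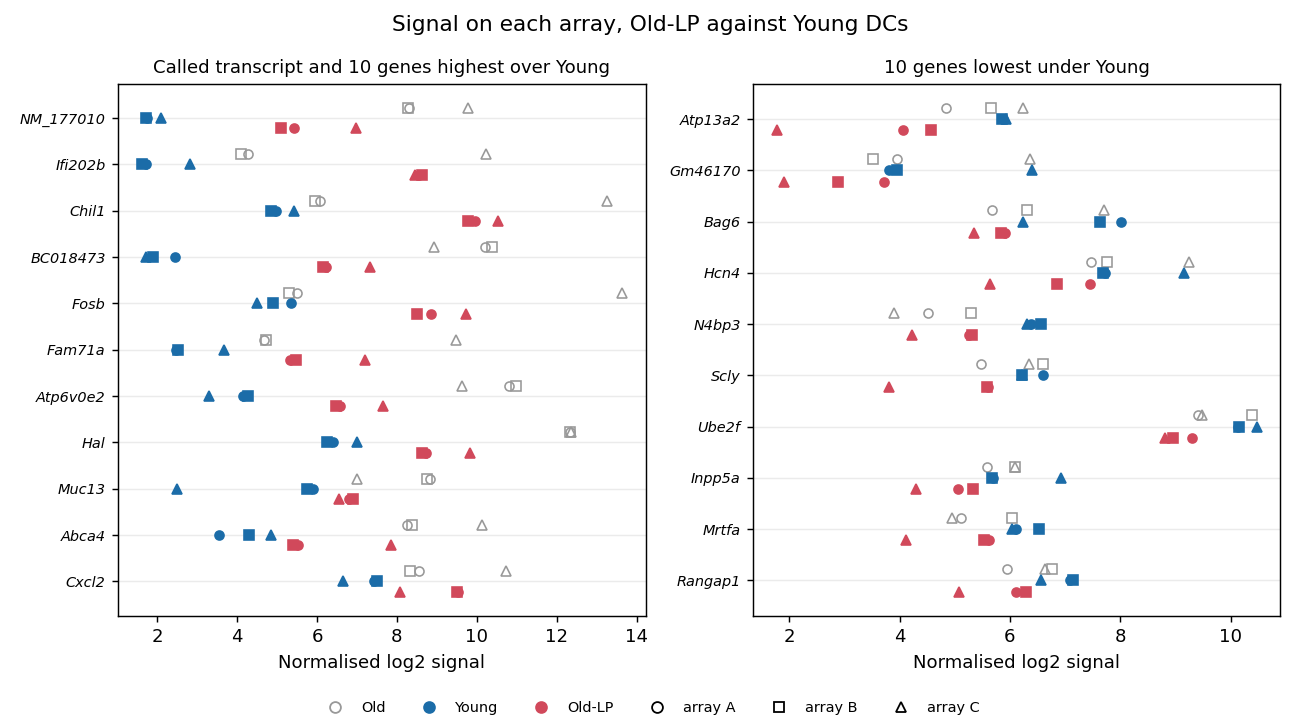
Normalised log2 signal (x axis) of the called transcript and the 10 genes highest over Young (left) and the 10 genes lowest under Young (right). Each symbol is 1 array, with Young in blue, Old-LP in red and Old as open grey, and the shape gives the letter. On the left, Old-LP lies above Young in every row, and Old C stands apart for *Ifi202b*, *Chil1*, *Fosb* and *Fam71a*. On the right, Old-LP C is the lowest of the 6 Young and Old-LP arrays in all 10 rows.

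The 10 genes with the lowest difference under Young were *Atp13a2*, *Gm46170*, *Bag6*, *Hcn4*, *N4bp3*, *Scly*, *Ube2f*, *Inpp5a*, *Mrtfa* and *Rangap1*, between -2.41 and -1.11. None passed the adjusted threshold. *Atp13a2*, a lysosomal transporter, read 5.88, 5.85 and 5.93 in Young and 4.07, 4.57 and 1.78 in Old-LP, a difference of -2.41 (SE 0.67). *Bag6*, a chaperone for membrane proteins, read 8.01, 7.63 and 6.23 in Young and 5.90, 5.83 and 5.34 in Old-LP. *Ube2f*, an enzyme of the NEDD8 pathway, was the brightest of the 10, at 10.13, 10.15 and 10.47 in Young and 9.31, 8.95 and 8.81 in Old-LP, and its difference was -1.23 (SE 0.30).

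Most of the lower values were largest on array C and were not seen at other probes of the gene. Old-LP C was the lowest of the 6 arrays for all 10 genes, and 9 of the 10 probes were not well above background there. The median difference over the 10 was -0.91 on A, -1.03 on B and -2.24 on C. For 8 of the 10 genes another probe was well above background on all 6 arrays, and these 9 probes gave differences of -0.35 to 0.25, with a median of -0.04 and a smallest unadjusted p of 0.1. *Bag6* was an exception, since a further probe that was dim on some arrays gave -2.02 (unadjusted limma p of 0.0132) and its named probe differed more on A and B, by -2.11 and -1.80, than on C, by -0.88. At *Atp13a2* the second probe gave -0.12, at *Scly* 0.08, at *Mrtfa* 0.15 and at *Rangap1* -0.01.

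Genes of the LPS response were read in lists of pathway members, 1 probe per gene. Over the 19 pathway and 8 cell marker lists, 354 genes were measured, and 8 of them (2.26%) passed the unadjusted thresholds, against 2.27% of all 24232 named genes (1.25% higher and 1.02% lower). All 8 were higher in Old-LP at the probe taken for the gene, and 10 genes had an unadjusted p of at most 0.05 without the fold change, all 10 higher. None was called at the adjusted threshold. The median difference over a list ran from -0.15 (T cell markers) to 0.31 (neutrophil and granulocyte precursor markers), beside 0.01 over all named genes.

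Of 15 NF-κB subunits and inhibitors, 10 were higher and 5 lower, with a median of 0.22. The 2 past the unadjusted threshold were inhibitors of the IκB family. *Nfkbia*, which encodes IκBα, read 14.09, 14.16 and 13.49 in Young and 14.34, 14.49 and 14.47 in Old-LP. The arrays did not overlap, and the difference was 0.52 (SE 0.20, unadjusted limma p of 0.0336). *Nfkbiz*, which encodes the nuclear IκBζ, read 7.70, 7.66 and 5.83 in Young and 8.28, 8.46 and 7.33 in Old-LP. Each letter was higher in Old-LP, but the groups overlapped, and the difference was 0.96 (SE 0.40), against 0.27 at its other probe. In Old, *Nfkbia* differed from Young by 0.32 and *Nfkbiz* by 0.85, neither past the adjusted threshold. The subunits *Nfkb1* and *Rela* differed by 0.05 (SE 0.18) and -0.06 (SE 0.16). At the bottom of the list, *Nfkbie*, another IκB gene, was at -0.43 with an unadjusted limma p of 0.208.

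Of 21 chemokine genes measured, 16 were higher and 5 lower in Old-LP, with a median of 0.14 and 3 past the unadjusted threshold. All 3 encode CXC chemokines that attract neutrophils. *Cxcl1* read 7.32, 7.22 and 5.75 in Young and 9.78, 9.61 and 7.31 in Old-LP, a difference of 2.14 (SE 0.83). Each letter was higher in Old-LP, and the groups met at Young A and Old-LP C. On A and B alone its difference was 2.43, with an adjusted p of 0.0223. *Cxcl2* read 7.43, 7.51 and 6.66 in Young and 9.52, 9.49 and 8.07 in Old-LP, a difference of 1.83 (SE 0.69) with no overlap. Old DCs were also above Young at *Cxcl2*, at 8.56, 8.31 and 10.74, a difference of 2.00 that did not pass the adjusted threshold. *Cxcl3* read 10.36, 10.29 and 9.93 in Young and 10.88, 11.12 and 10.13 in Old-LP, a difference of 0.51 (SE 0.22) with overlap. The lowest of the list was *Cxcl9*, a chemokine of the interferon response, at -0.26 (SE 0.37).

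The genes *Cxcl1*, *Cxcl2*, *Cxcl3* and *Nfkbia* are known targets of NF-κB, and the 250 bases before their starts are shown because they are the listed genes above Young, of those in the promoter table, that hold the motif described next. The sequences are from RefSeq (build GRCm38.p6, matched by symbol), read 5′ to 3′ on the strand of the gene, at chr5:90890995-90891244 (plus strand) for *Cxcl1*, chr5:90903649-90903898 (plus) for *Cxcl2*, chr5:90785851-90786100 (plus) for *Cxcl3* and chr12:55492648-55492897 (minus) for *Nfkbia*. Capitals mark matches to a form of the NF-κB motif (GGG, any 2 bases, then TTTCC) on either strand, and no matches overlapped.
Cxcl1: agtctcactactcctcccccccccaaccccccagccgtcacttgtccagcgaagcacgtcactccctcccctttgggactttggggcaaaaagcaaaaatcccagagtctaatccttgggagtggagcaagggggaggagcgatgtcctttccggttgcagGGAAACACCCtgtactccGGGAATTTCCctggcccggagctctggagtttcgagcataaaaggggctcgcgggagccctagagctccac
Cxcl2: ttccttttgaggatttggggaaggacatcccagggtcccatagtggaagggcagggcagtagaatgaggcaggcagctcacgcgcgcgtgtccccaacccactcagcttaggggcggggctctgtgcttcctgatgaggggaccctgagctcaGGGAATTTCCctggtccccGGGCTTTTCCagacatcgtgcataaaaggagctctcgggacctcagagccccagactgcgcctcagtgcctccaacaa
Cxcl3: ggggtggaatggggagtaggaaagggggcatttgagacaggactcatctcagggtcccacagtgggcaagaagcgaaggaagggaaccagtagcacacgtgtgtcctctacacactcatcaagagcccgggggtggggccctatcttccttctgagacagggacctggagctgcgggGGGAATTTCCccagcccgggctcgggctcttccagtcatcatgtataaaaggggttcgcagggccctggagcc
Nfkbia: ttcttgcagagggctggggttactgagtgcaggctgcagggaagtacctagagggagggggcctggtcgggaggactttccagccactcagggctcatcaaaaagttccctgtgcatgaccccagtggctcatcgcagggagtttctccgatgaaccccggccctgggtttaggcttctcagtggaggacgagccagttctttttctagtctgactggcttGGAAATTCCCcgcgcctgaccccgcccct

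The same 10 bases GGGAATTTCC stood in all 4 windows, on the minus strand of the gene in *Nfkbia* and on the plus strand in the others. In *Cxcl1* the match spanned bases 71 to 62 before the start, in *Cxcl2* bases 97 to 88, in *Cxcl3* bases 73 to 64 and in *Nfkbia* bases 29 to 20. *Cxcl1* and *Cxcl2* each held a second match, at bases 89 to 80 and 78 to 69. Of all 32851 such windows in the table, 1.41% held the motif on either strand. Of the 10 listed genes with an unadjusted p of at most 0.05, 9 were in the table, and these 4 held it. The motif was picked with the values known, and a match is a description of the letters only.

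Cytokines of the LPS response gave no call. Of 12 inflammatory cytokine genes, 9 were higher and 3 lower, with a median of 0.08, and *Tnf* differed by 0.01 (95% interval -0.61 to 0.63). *Il6* read 10.75, 10.60 and 11.03 in Young and 11.35, 11.44 and 11.47 in Old-LP, without overlap, and its difference of 0.63 had an interval of -0.52 to 1.77. *Il10*, the main anti-inflammatory cytokine of DCs, read 3.76, 3.95 and 4.65 in Young and 4.45, 4.41 and 6.86 in Old-LP, with an interval of -0.89 to 3.14. Such intervals leave room for a difference of more than a doubling at *Il6* and *Il10*. Of 15 genes of LPS sensing and signalling, 5 were higher and 10 lower, with a median of -0.11 and none past the unadjusted threshold.

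List medians for genes of tolerance and of contact with T cells lay close to Young. Over 15 tolerance enzymes and regulators the median was -0.06, and 14 of the 15 intervals lay inside -1 to 1. Of all probes well above background on all 6 arrays, 87.5% had such an interval. Over 11 co-inhibitory molecules the median was -0.04, and 9 of the 11 intervals lay inside -1 to 1. The intervals of *Cd200r1* (-2.08 to 2.34) and *Ctla4* (-1.17 to 1.89) did not, so larger differences could not be read there. In the same list *Cd274*, which encodes the checkpoint ligand PD-L1, read 13.14, 13.11 and 10.88 in Young and 13.40, 13.53 and 11.63 in Old-LP. It was higher for each letter, with a difference of 0.48 (SE 0.20) and an unadjusted limma p of 0.0419, and the groups overlapped because both C arrays were lower. *Lag3*, a receptor for MHC class II, read 7.87, 8.16 and 7.78 in Young and 7.70, 7.45 and 7.43 in Old-LP, so that the groups did not overlap. Its difference was -0.41 at this probe and -0.98 at its other, dimmer one (unadjusted limma p of 0.00933), which passed the unadjusted limits, as did a second probe of *Tgfbrap1* at -1.11 and one of *Hdc* at 0.65. Over 14 genes of co-stimulation and MHC class II the median was 0.03, and 13 of the 14 intervals lay inside -1 to 1.

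Metabolism and cell division also lay near Young, as most bright probes did. Of probes well above background on all 6 arrays, 87.5% had an interval inside -1 to 1. All 17 glycolysis genes and all 18 genes of oxidative phosphorylation measured had intervals inside -1 to 1, with medians of -0.06 and -0.03. Of 30 proliferation genes, 14 were higher and 16 lower, with a median of 0.00, and 27 intervals lay inside -1 to 1. The exception past the unadjusted threshold was *Bub1b*, a mitotic checkpoint kinase, at 7.07, 7.41 and 7.33 in Young and 7.88, 7.94 and 7.74 in Old-LP, a difference of 0.58 (SE 0.19) without overlap. Of 13 senescence and growth arrest genes, 11 were higher and 2 lower, with a median of 0.22. In that list *Cdkn2b*, which encodes the cell cycle inhibitor p15, read 10.25, 10.05 and 10.13 in Young, 10.40, 10.35 and 10.80 in Old-LP and 11.27, 11.18 and 11.32 in Old.

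**Figure D2:**
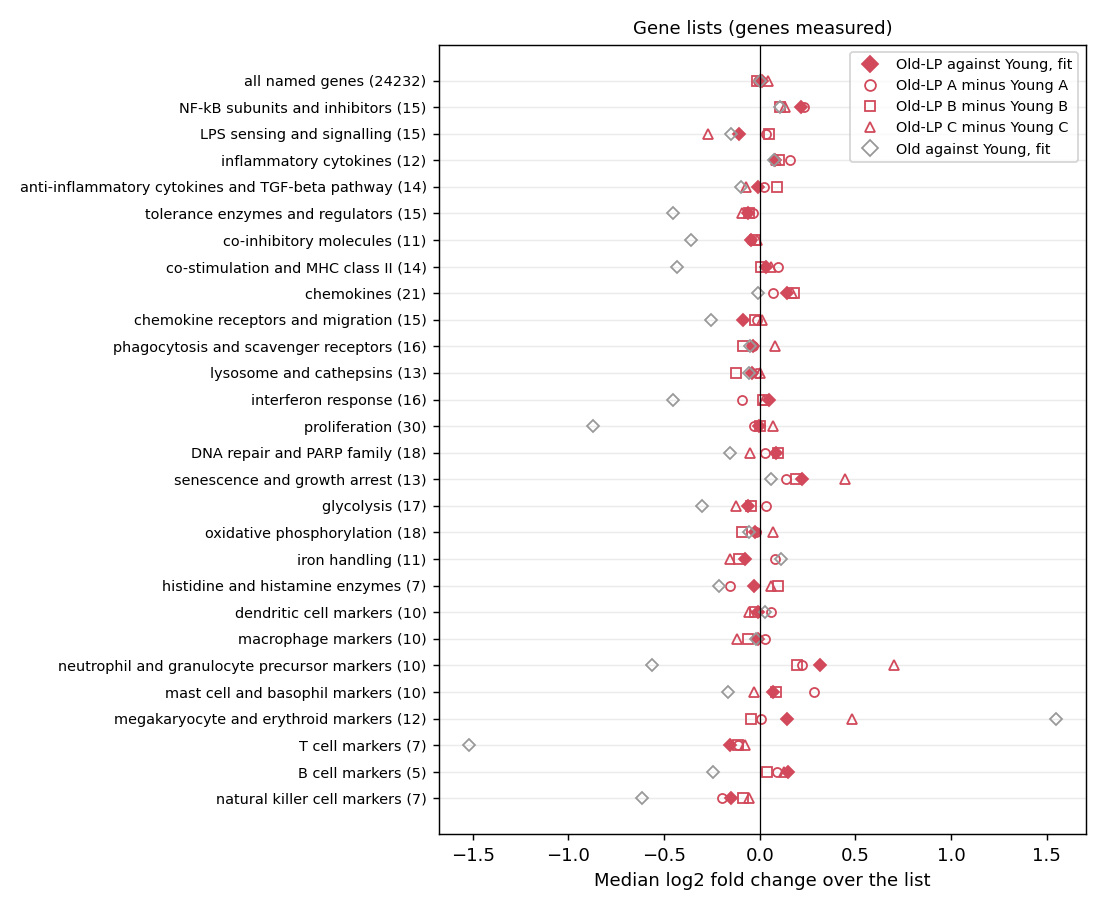
Median log2 fold change (x axis) over each gene list, with the number of genes measured in brackets. Filled red diamonds are Old-LP against Young in the fit, open red symbols are the differences of the single letters, and open grey diamonds are Old against Young, which shares the Young arrays. The red diamonds lie between -0.15 and 0.31, while the grey ones reach -1.52 for T cell markers and 1.55 for megakaryocyte and erythroid markers.

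Of the 354 listed genes, 48 passed the adjusted thresholds in Old against Young, where 3.06% of all named genes passed; the lists were drawn up with those results known. For these 48 genes, the median size of the difference was 1.31 in Old against Young and 0.16 in Old-LP against Young. Both comparisons use the same Young arrays, so the values are given side by side and not tested against each other. In Old-LP, 38 of the 48 genes had an interval inside -1 to 1, and 43 differed from Young by less than 0.5. Of all 24232 named genes, 15588 had an interval inside -1 to 1. Between Old-LP and Old, 33 of the 48 passed the adjusted thresholds, where 2.38% of all named genes passed. The 48 were chosen by their Old arrays, which that comparison uses again, so the 33 is in part set by the choice.

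Most listed genes far below Young in Old DCs read much as Young in Old-LP DCs. *Lag3* was an exception, at -0.41 from Young in Old-LP, without overlap, and -1.66 in Old. Its other probe gave -0.98 in Old-LP. *Cxcl9* was at 7.85, 7.64 and 9.34 in Young, 7.43, 7.47 and 9.15 in Old-LP, and 2.79, 2.56 and 3.12 in Old. *Ccl1*, a chemokine for the receptor CCR8, was at 10.94, 10.89 and 11.25 in Young, 10.96, 10.83 and 10.59 in Old-LP, and 6.03, 5.66 and 6.26 in Old. For both genes the Young and Old-LP arrays overlapped and every Old array lay below them. *Pdcd1lg2*, which encodes the checkpoint ligand PD-L2, differed from Young by -0.06 in Old-LP (95% interval -0.57 to 0.46) and by -1.69 in Old. The chemokine receptor gene *Ccr2* differed by 0.22 in Old-LP and -1.77 in Old, and the division genes *Kif11* and *Top2a* by -0.01 and 0.05 in Old-LP and by -1.30 and -1.18 in Old.

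Among genes higher in Old, the platelet and red cell genes *Gp1bb*, *Itga2b*, *Gp9*, *Epor*, *Treml1* and *Ppbp* differed from Young by 0.15 to 0.42 in Old-LP and by 1.49 to 2.83 in Old. The transferrin receptor gene *Tfrc* differed by 0.04 in Old-LP and 1.30 in Old. Of the 25 genes with the smallest adjusted p in Old against Young, 3 had an unadjusted p of at most 0.05 in Old-LP against Young: *Hal*, *Camp* and *Cdkn2b*. *Camp* encodes the antimicrobial peptide cathelicidin and read 7.23, 7.32 and 7.76 in Young, 7.54, 7.60 and 9.22 in Old-LP and 9.95, 9.96 and 10.52 in Old. Its difference of 0.68 (SE 0.26) came mostly from array C, where it was 1.46.

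**Figure D3:**
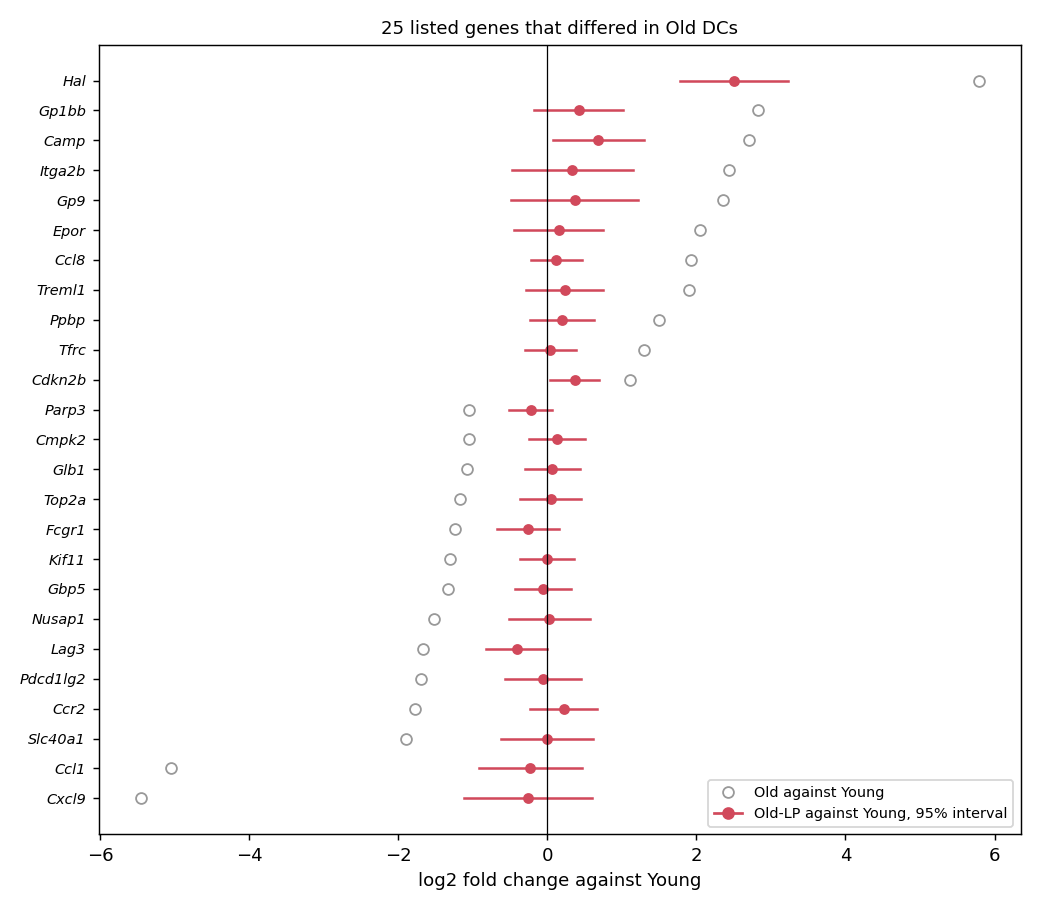
log2 fold change against Young (x axis) of the 25 listed genes with the smallest adjusted p in Old against Young. Red points with lines are Old-LP against Young with the 95% interval, and open grey points are Old against Young, which uses the same Young arrays. All 25 grey points lie beyond 1 in size, and the red intervals of 22 genes hold 0, the exceptions being *Hal*, *Camp* and *Cdkn2b*.

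A pair of further gene groups was drawn up after the values had been seen and is given as a description. Of 15 immediate early genes, which respond within minutes to many stimuli, 13 were higher in Old-LP, with a median of 0.40 beside 0.01 over all named genes, and 7 did not overlap between groups, beside 4.49% of all named genes. *Fos* read 10.29, 10.24 and 7.37 in Young and 11.26, 11.15 and 9.13 in Old-LP, higher for each letter, with a difference of 1.21 (SE 0.26). *Egr1* read 10.54, 10.47 and 10.22 in Young and 10.85, 11.00 and 11.44 in Old-LP, without overlap. *Ier2* differed by 0.40 (SE 0.17). *Junb* differed by 0.43 (SE 0.17), and by -0.26 at another probe that was well above background on all 6 arrays.

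Of 22 matrix and mesenchymal genes, 18 were higher in Old-LP than in Young, with a median of 0.63, and 5 were well above background on all 6 arrays. The median was 0.14 with normexp background correction and 0.16 in the authors' log2 table. In the fit that gave 0.63, the median for Old over Young was 1.98, and that median was not computed with normexp. Their summed intensity, set mostly by *Thy1*, was 9423 to 10540 in Old-LP and 10342 to 14948 in Young. *Dcn*, which encodes the matrix proteoglycan decorin, read 4.07, 4.10 and 4.81 in Young, 5.48, 5.43 and 6.77 in Old-LP and 8.30, 8.61 and 8.95 in Old. *Sparc*, a matrix glycoprotein, read 5.04, 4.84 and 4.78 in Young, 6.30, 5.95 and 6.91 in Old-LP and 8.39, 8.56 and 8.79 in Old. *Col1a2*, a chain of type I collagen, read 5.32, 5.10 and 5.91 in Young, 6.46, 6.14 and 7.50 in Old-LP and 8.73, 8.74 and 10.09 in Old. In all 3 genes the Old-LP arrays lay between the Young and the Old arrays without overlap, while a second probe of *Sparc* gave a difference of 0.13. For the higher values in Old-LP than in Young, more cells that make matrix and more of the transcript per cell cannot be told apart in such bulk RNA.

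**Figure D4:**
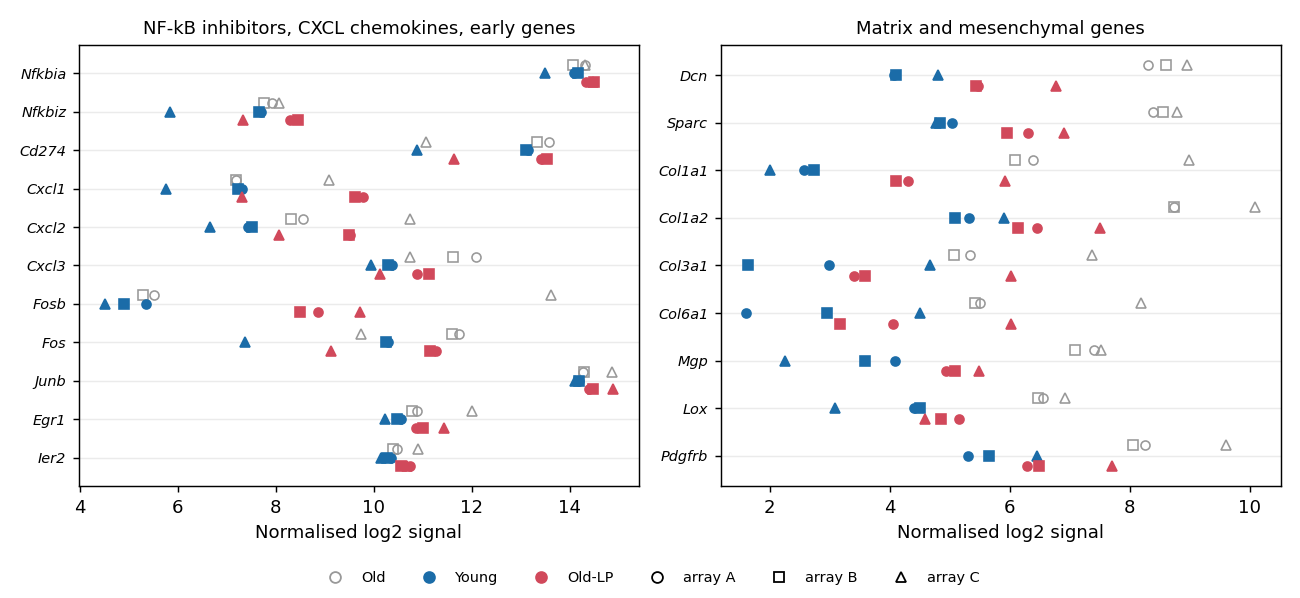
Normalised log2 signal (x axis) of the NF-κB inhibitor, *Cd274*, CXC chemokine and immediate early genes (left) and of matrix and mesenchymal genes with an unadjusted p of at most 0.05 (right). Each symbol is 1 array (Young blue, Old-LP red, Old open grey), and the shape gives the letter. On the left, Old-LP is above Young for each letter in every row. On the right, Old-LP lies between Young and Old for each letter in every row.

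Markers of other cells were compared by list. The neutrophil and granulocyte precursor markers had the highest list median, 0.31, with 8 of 10 higher. Their summed intensity was 24737 to 36589 in Old-LP against 20236 to 22660 in Young, ranges that did not overlap. By letter the list median was 0.22 on A, 0.20 on B and 0.70 on C, and 4 of the 10 intervals lay inside -1 to 1. The part of such cells in the higher *Cxcl1* and *Cxcl2* signal was not tested. T cell and natural killer cell markers each had a median of -0.15, with 6 of 7 lower in Old-LP. Megakaryocyte and erythroid markers summed to 66499 to 83398 in Old-LP and 60054 to 77486 in Young, and macrophage markers to 109203 to 152167 and 100572 to 168970, and in both the ranges overlapped.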

How the data were processed

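RNA of LPS-stimulated DCs was hybridised to 12 arrays, 3 per group by the titles. The authors deposited the intensity of each spot from the scanner software with background subtracted (version 12.1.1.1 per the file headers, 10.5 per the labels), and a table of log2 values for 46302 probes. Its columns have medians of 7.07 to 7.10 and follow the log2 median signal (r of 0.974 to 0.999), so its scale is log2, and how its probes were chosen is not given in the sources used here.

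Of 59305 spots that are not controls, 1068 readings flagged as outliers were set to missing. The log2 intensity was quantile normalised, as in the study's methods, and averaged over spots to 56605 probes. Accessions matched 35405 probes to 24232 RefSeq symbols. That table is for another assembly than the mm9 of the array headers, so no probe coordinates are given. In R (version 4.3.3), limma (version 3.58.1) fitted a mean per group and the letter A, B or C to all 12 arrays. The letter marks pairing by the data: deviations from group means correlated at 0.41 to 0.59 between Young and Old-LP arrays of one letter, though A with B gave 0.46 to 0.52, so mainly C is set apart. All p are two-sided, adjusted by Benjamini-Hochberg over all probes, and an exact permutation test of 3 arrays against 3 cannot go below 0.1. A group with no array well above background was given a bound, the mean of the bright group less the mean, per array, of the higher of the dim probe and the lowest spot well above background. Named genes were those past the adjusted thresholds, the 10 highest and 10 lowest described above (1 probe per gene, detected on all arrays of 1 or both groups), listed genes with an unadjusted p of at most 0.05 or at either end of a list, and up to 25 listed genes called in Old against Young. For a listed gene the brightest probe on average was taken; 11 listed genes had none. The members, lists and tests were chosen with earlier results of these data known. Steps were tested on simulated data. Alternatives were other blocks, arrays, scalings, filters and the table of the authors, and normexp was run on the median signal. The number of arrays limits the precision.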

Additional observations from a re-analysis of the deposited data

How the results depend on the processing

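The count of called probes was 1 with the replicate block and stayed at 1 with the slide as block, an intensity trend, outlier spots kept and a filter on dim probes. It was 0 with no replicate block, on Old-LP and Young arrays alone, with the 75th percentile shift, with normexp background, with the authors' log2 table and with averages over the probes of a gene, and 11 on A and B arrays alone. For the transcript NM_177010 the difference was 1.06 with normexp and 1.13 in the authors' table and 4.06 with the percentile shift (adjusted p of 0.0837). With each array left out in turn the count was 0 to 9, the 9 without Old C and 0 without any of the others. The probes past the unadjusted threshold numbered 1459 with the replicate block and 632 with no replicate block, 3138 on A and B alone, 191 with normexp, 237 in the authors' table, 518 with the filter and 592 as genes, and 1214 to 2627 with an array left out, the highest without Old-LP A. Of them 48.5% were higher in Old-LP, against 68.1% (1132 higher, 531 lower) with the percentile shift. Bright probes with an interval inside -1 to 1 numbered 18740, against 9731 with no replicate block and 10362 as genes, where fewer features were tested, and 16207 to 19883 with an array left out. The fit on A and B called 8 named or listed genes beside NM_177010, and the fit without Old C called *Ifi202b*, *Chil1*, *Fosb* and *Fam71a*. For 92 genes followed through the alternatives, 51 of 1553 values changed sign, none of them at NM_177010, and of 493 list medians 80 moved by more than the spread between letters. The cause was not tested. Fewer spots were above background on array C, which limits what dim genes can show there.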

Other observations

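A set of 85 probes that stood far above Young in Old DCs (called, at least 8-fold, well above background on every Old array) was read in Old-LP after these values had been seen. The choice used the Young arrays and favours probes that are low there, so the values are a description. On the linear scale of normalised intensity, Old-LP lay a median of 6.01% of the way from Young to Old on A, 5.14% on B and 15.3% on C, with 80% of the probes between 1.73% and 16.8% on A, between 0.91% and 11.8% on B and between 0.34% and 25.5% on C. On the log2 scale the same probes were a median of 0.98 above Young in Old-LP and 3.69 in Old. Of the 85, 84 were above Young in Old-LP, a count in part set by the choice. Of all 24232 named genes, 12879 were higher in Old-LP than in Young.

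For *Hal* the linear intensity was 83.7, 76.7 and 129 in Young, 423, 397 and 909 in Old-LP and 5168, 5144 and 5227 in Old, which put Old-LP at 6.66%, 6.32% and 15.3% of the way. For *Dcn* it was 16.7, 17.2 and 28.0 in Young, 44.6, 43.2 and 109 in Old-LP and 314, 391 and 494 in Old, or 9.36%, 6.98% and 17.5%. For *BC018473* the shares were 5.89%, 5.07% and 32.4%, and for *Atp6v0e2* 4.32%, 3.48% and 24.5%.

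Over all 1233 probes called between Old and Young, the 679 higher in Old were a median of 0.29 above Young in Old-LP, and the 554 lower in Old were a median of -0.11 from Young. Of these, 395 and 489 had a 95% interval inside -1 to 1 in Old-LP against Young. Over all 56605 probes, 32616 (57.6%) had such an interval, a share near that of the probes higher in Old.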
